A study of Mus musculus with 6 samples.

Results

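The genes described here encode the enzymes and binding proteins that keep mammalian chromatin repressed: Dnmt1, Dnmt3a and Uhrf1 for DNA methylation, Ezh2, Eed and Suz12 for Polycomb repressive complex 2 (PRC2), and Suv39h1, Setdb1, Cbx5 and Trim28 for heterochromatin marked by methylation of histone H3 at lysine 9. The 10 genes were chosen by name, with no threshold on their values, out of 27998 in the count table, and all were found. Their level is the number of unique molecular identifiers (UMIs, 1 per captured RNA molecule) added up over all cells kept in a library, as counts per 1000000 UMIs of that library (CPM). Single-cell 3′ RNA-seq had been done on 6 libraries, 1 for each group, so no difference between groups has a replicate check and no p-value is given.

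All cells were immortalised granulocyte-macrophage progenitors (iGMPs) of strain C57BI/6, grown in stem cell factor and sorted as live cells. They carried a GFP driven by the lysozyme promoter and a HOXA9 protein fused to the estrogen receptor, which is active only with estradiol in the medium. The CAF-1 OFF arm was a clone with an IPTG-inducible shRNA that targets Chaf1b, which encodes 1 of the subunits of the chaperone CAF-1, sampled at 0, 48 and 96 h of IPTG with estradiol kept. The HOXA9 OFF arm was a clone with a control shRNA from which estradiol was withdrawn, also sampled at 0, 48 and 96 h. Each arm is therefore 1 clone, and clone and treatment cannot be told apart outside the comparison with the arm's own 0 h library. The question that these genes bear on is whether the machinery of repression changed in level when a progenitor lost its chaperone, and how this compared with the differentiation that follows loss of HOXA9.

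DNA methylation is copied at replication when UHRF1 binds half-methylated DNA and recruits the maintenance enzyme DNMT1, while DNMT3A adds methyl groups to sites that had none. PRC2 methylates histone H3 at lysine 27 through its catalytic subunit EZH2, which is inactive without EED and SUZ12. SUV39H1 and SETDB1 methylate lysine 9 of the same histone, CBX5 (HP1 alpha) binds that mark, and TRIM28 (KAP1) brings SETDB1 to target sites through zinc finger proteins. CAF-1 deposits histones behind the replication fork, and several of these factors are known to work at that same fork.

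Kept cells numbered 473 to 1510 and UMIs 3524285 to 5589486 per library, after barcodes with under 200 genes or over 10% mitochondrial UMIs were removed. That filter took out 66.2% of barcodes from HOXA9 OFF at 0 h and 41.7% from CAF-1 OFF at 0 h, but 0.198% from HOXA9 OFF at 96 h. The median UMIs per cell were between 5956 and 6571 in CAF-1 OFF, whereas in HOXA9 OFF they went from 8660 to 3536 and 2044. The 8 progenitor markers summed to 7465 and 6605 CPM at 0 h, to 11395 CPM at 96 h of CAF-1 OFF and to 156 CPM at 96 h of HOXA9 OFF. The 11 late granulocyte markers, each with UMIs in some library, went from 31.0 to 10484 and 144730 CPM in HOXA9 OFF. In CAF-1 OFF they went from 33.9 to 1201 CPM by 96 h. Of the 11, 4 had 0 UMIs at 0 h of HOXA9 OFF, 7 at 0 h of CAF-1 OFF and 2 at 96 h of CAF-1 OFF. In CAF-1 OFF the sum of 6 megakaryocyte markers went from 45.6 to 2697 CPM with Gp1bb at 0 in every library, and that of 5 mast cell or basophil markers from 249 to 3977 CPM with Gzmb at 0 in every library. The part of these other cell types in the results below was not tested. The 5 eosinophil markers reached 19269 CPM at 48 h of HOXA9 OFF, from 1469 CPM at 0 h, and stood at 3248 CPM at 96 h. In CAF-1 OFF their sum went from 216 to 459 and 1241 CPM, with 3 of the 5 at 0 UMIs at 96 h. The sums of 6 erythroid markers lay between 4.51 and 20.02 CPM, those of 6 lymphoid markers were at most 279 CPM, and those of 7 genes that blood cells should lack at most 1.14 CPM. Only 16 of 5856 barcode sequences of kept cells occurred in more than 1 library.

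The promoters are shown first, since the members that went down together in HOXA9 OFF differ in what their promoters hold. Each sequence is a RefSeq window on GRCm38.p6, from 250 bases before a transcript start to 50 after it, written 5′ to 3′ on the strand of the gene. Capitals mark matches on either strand to 4 spellings of the E2F site, TTTCCCGC, TTTCGCGC, TTTGCCGC and TTTGGCGC, a site read by a family of factors that act at entry into S phase. Where a gene has several windows the numbered one is given. The first 5 are the members with a match, Cbx5 is the member with the largest log2 decrease and no match, and Eed is the member that was higher at 96 h.
Dnmt1 promoter window 3, chr9:20952574-20952873, minus strand: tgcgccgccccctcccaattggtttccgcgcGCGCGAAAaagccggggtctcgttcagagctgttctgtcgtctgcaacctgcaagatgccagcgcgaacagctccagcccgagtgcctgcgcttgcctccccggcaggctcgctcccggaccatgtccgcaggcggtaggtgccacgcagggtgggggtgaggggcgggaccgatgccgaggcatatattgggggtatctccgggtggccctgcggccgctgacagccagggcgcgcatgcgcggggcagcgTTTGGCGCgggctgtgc
Uhrf1 promoter window 2, chr17:56304063-56304362, plus strand: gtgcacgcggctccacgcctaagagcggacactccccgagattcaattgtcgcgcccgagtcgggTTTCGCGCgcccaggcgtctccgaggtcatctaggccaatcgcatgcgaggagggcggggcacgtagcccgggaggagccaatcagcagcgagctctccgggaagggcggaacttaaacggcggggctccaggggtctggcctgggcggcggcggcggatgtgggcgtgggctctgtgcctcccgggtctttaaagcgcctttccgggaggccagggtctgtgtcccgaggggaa
Ezh2 promoter, chr6:47594981-47595280, minus strand: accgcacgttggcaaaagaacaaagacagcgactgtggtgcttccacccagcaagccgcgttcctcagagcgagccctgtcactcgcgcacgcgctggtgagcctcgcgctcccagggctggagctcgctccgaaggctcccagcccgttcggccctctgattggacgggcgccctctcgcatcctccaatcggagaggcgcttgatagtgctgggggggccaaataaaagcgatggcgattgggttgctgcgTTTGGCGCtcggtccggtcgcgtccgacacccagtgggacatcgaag
Suz12 promoter, chr11:79992856-79993155, plus strand: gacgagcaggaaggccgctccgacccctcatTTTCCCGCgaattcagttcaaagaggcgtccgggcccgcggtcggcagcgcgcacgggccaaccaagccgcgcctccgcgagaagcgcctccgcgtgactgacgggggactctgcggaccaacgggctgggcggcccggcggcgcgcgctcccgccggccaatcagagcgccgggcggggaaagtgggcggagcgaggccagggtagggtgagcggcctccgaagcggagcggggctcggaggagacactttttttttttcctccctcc
Suv39h1 promoter window 2, chrX:8074312-8074611, minus strand: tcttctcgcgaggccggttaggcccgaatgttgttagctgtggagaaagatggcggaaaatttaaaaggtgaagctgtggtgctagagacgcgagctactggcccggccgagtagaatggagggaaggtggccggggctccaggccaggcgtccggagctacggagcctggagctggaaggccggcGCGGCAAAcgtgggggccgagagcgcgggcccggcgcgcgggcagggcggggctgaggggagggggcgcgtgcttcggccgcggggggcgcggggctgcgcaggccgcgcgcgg
Cbx5 promoter window 1, chr15:103239803-103240102, minus strand: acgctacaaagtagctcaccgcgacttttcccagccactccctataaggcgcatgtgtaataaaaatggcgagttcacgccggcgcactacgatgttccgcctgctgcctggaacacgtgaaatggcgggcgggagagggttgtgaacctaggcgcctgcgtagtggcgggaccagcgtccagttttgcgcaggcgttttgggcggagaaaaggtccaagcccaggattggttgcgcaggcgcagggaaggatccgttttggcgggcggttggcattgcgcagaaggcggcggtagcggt
Eed promoter, chr7:89980927-89981226, minus strand: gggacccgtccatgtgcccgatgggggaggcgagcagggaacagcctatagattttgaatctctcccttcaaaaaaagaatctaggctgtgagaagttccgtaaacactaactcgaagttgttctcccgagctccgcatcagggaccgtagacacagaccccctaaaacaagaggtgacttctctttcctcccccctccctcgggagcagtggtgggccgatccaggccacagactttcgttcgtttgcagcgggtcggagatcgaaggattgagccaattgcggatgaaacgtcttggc

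All 10 members matched the promoter table, with 17 windows. In RefSeq, Uhrf1, Eed, Suz12, Suv39h1 and Cbx5 share no base with another annotated gene. Dnmt1 overlaps Mir7081, Dnmt3a overlaps Dnmt3aos and Gm31623, Ezh2 overlaps F830010H11Rik, Setdb1 overlaps Cers2 and Trim28 overlaps Gm31649, so UMIs of these pairs could be exchanged if strand was not used in counting. An E2F match lay in a window of 5 of 10 members, Dnmt1, Uhrf1, Ezh2, Suz12 and Suv39h1, and in 2.61% of 27025 genes with a window. CCAAT, on either strand, lay in 8 of 10 members and in 41.1% of all genes. TTTGAA, the letters of the cell cycle homology region, lay in 3 of 10 members, Dnmt1, Eed and Suz12, and in 20.2% of all genes. By window, an E2F match lay in 5 of the 17 of the members and in 2.26% of all 32851. The motifs were chosen because many members are known to be linked to replication. The 5 members with an E2F match were all at least 2-fold lower at 96 h of HOXA9 OFF, but Cbx5 and Trim28 were as well without a match. Only the E2F spellings listed above were searched, so lack of a match does not mean lack of an E2F site. Of the 4789 genes of at least 20 CPM on average, 39.8% were lower there. None of the E2F spellings contains CCAAT or TTTGAA, and matches of different motifs were allowed to share bases. A match is only a run of letters and was not tested for binding.

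**Figure D1:**
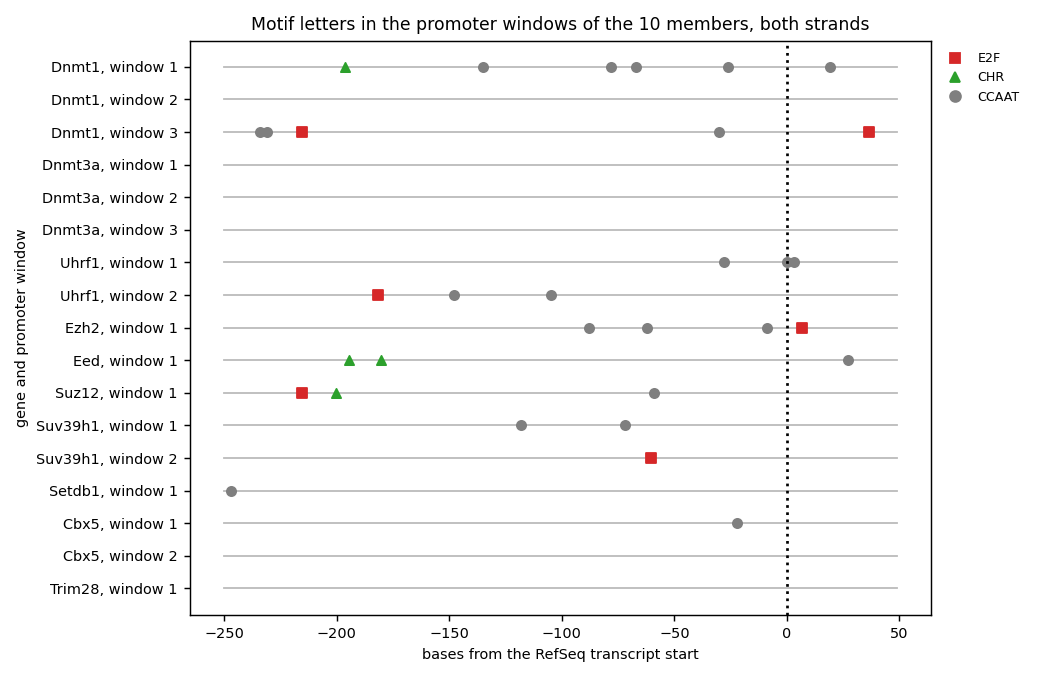
Position of each motif match in the 17 promoter windows of the 10 members, in bases from the RefSeq transcript start, with squares for the E2F spellings, triangles for TTTGAA and circles for CCAAT on either strand. Squares occur in 5 members, circles in 8 and triangles in 3.

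The shRNA target was checked first. Chaf1b stood at 35.6, 3.22 and 6.49 CPM at 0, 48 and 96 h of CAF-1 OFF and at 51.5, 15.3 and 1.13 CPM at the same times of HOXA9 OFF. It was thus 11.1-fold lower (95% interval 6.76 to 19.2) at 48 h of CAF-1 OFF and 5.49-fold lower (3.78 to 8.17) at 96 h. The partner subunit Chaf1a went from 32.7 to 23.0 CPM by 96 h of CAF-1 OFF, and from 32.2 CPM to 0 UMIs in HOXA9 OFF at 96 h. Chaf1b and Chaf1a were therefore both low at 96 h of HOXA9 OFF too, without the Chaf1b shRNA. Intervals are exact and cover counting error only, not the difference between cultures.

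Before either treatment no member differed between the arms beyond counting error. The log2 ratio of HOXA9 OFF at 0 h to CAF-1 OFF at 0 h, taken on CPM + 10 here and below, lay between -0.15 for Ezh2 and 0.15 for Uhrf1. No interval of the 10 excluded 0, and no member was 2-fold apart, against 0.146% of 4789 genes lower and 0.752% higher among genes of at least 20 CPM on average. Chaf1b differed more, with a log2 ratio of 0.43 (0.18 to 0.68).

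**Figure D2:**
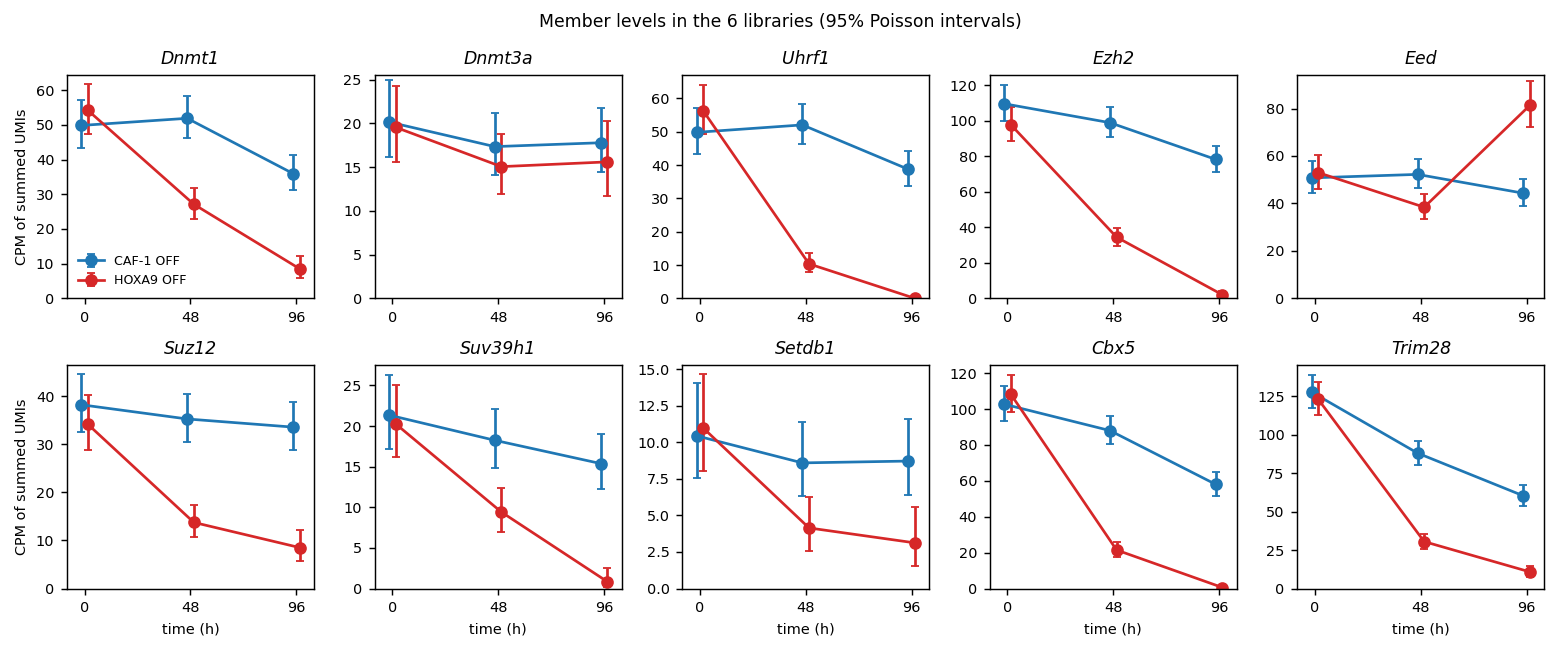
CPM of each of the 10 genes (vertical axis, from 0, a different scale in each panel) against time in hours for CAF-1 OFF (blue) and HOXA9 OFF (red), 1 library a point, with exact 95% Poisson intervals. The arms start together in every panel. The red line reaches 0 CPM for Uhrf1 and 0.567 CPM for Cbx5, stays near its start for Dnmt3a and ends above it for Eed.

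Of the DNA methylation genes, Uhrf1 and Dnmt1 fell by at least 2-fold by 96 h of HOXA9 OFF, and Dnmt3a differed from 0 h by less than its counting error. Uhrf1 stood at 49.8, 52.1 and 38.7 CPM at 0, 48 and 96 h of CAF-1 OFF, against 56.3, 10.4 and 0 CPM along HOXA9 OFF. After 48 h of HOXA9 OFF this was 5.44-fold lower (4.04 to 7.43). At 96 h 0 UMIs of Uhrf1 were found among 3524285. Set at a floor of 3 UMIs per library, this was 66.2-fold lower than at 0 h, with counting error left out. The exact interval, which covers counting error, put Uhrf1 at least 53.4-fold lower. In CAF-1 OFF at 96 h Uhrf1 was 1.29-fold lower (1.06 to 1.57). Its paralog Uhrf2, which is not known to replace it in maintenance, was at 47.7 and 30.1 CPM at 0 and 96 h of HOXA9 OFF, a log2 ratio of -0.53 that was 0.02 with trimmed-mean (TMM) factors.

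Dnmt1, the maintenance methyltransferase, stood at 49.8, 51.9 and 36.0 CPM along the CAF-1 OFF times, against 54.2, 27.1 and 8.51 CPM along those of HOXA9 OFF. It was 2.00-fold lower (1.61 to 2.48) at 48 h and 6.36-fold lower (4.34 to 9.65) at 96 h of HOXA9 OFF, and 1.39-fold lower (1.13 to 1.69) at 96 h of CAF-1 OFF. Dnmt3a, a de novo enzyme, stood at 20.2, 17.4 and 17.8 CPM along the CAF-1 OFF times, against 19.6, 15.1 and 15.6 CPM along those of HOXA9 OFF. All 4 of its intervals against 0 h included 0, and its log2 ratio at 96 h of HOXA9 OFF was -0.21 (-0.53 to 0.12) but 0.24 with TMM factors. The other de novo enzyme, Dnmt3b, was low throughout, at 9.07 CPM at 0 h of HOXA9 OFF and with 0 UMIs at 96 h.

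Of the PRC2 core, the catalytic subunit and Suz12 went down in HOXA9 OFF while Eed was higher at the end. Ezh2 stood at 110 CPM (462 UMIs), 98.9 and 78.2 CPM along the CAF-1 OFF times, against 97.8, 34.5 and 1.99 CPM along those of HOXA9 OFF. The last of these values rested on 7 UMIs and was 49.3-fold lower than at 0 h (23.7 to 123). In CAF-1 OFF at 96 h Ezh2 was 1.40-fold lower (1.23 to 1.60), and at 48 h its interval included 0.

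Suz12, the subunit that holds PRC2 together, stood at 38.2, 35.2 and 33.6 CPM in CAF-1 OFF, where both log2 ratios had intervals that included 0. In HOXA9 OFF it stood at 34.1, 13.7 and 8.51 CPM, 2.48-fold lower (1.86 to 3.34) at 48 h and 4.01-fold lower (2.69 to 6.16) at 96 h. Eed, the subunit that binds methylated lysine 27, stood at 50.8, 52.2 and 44.3 CPM along the CAF-1 OFF times, against 53.0, 38.4 and 81.4 CPM along those of HOXA9 OFF. It was thus 1.38-fold lower (1.14 to 1.68) at 48 h of HOXA9 OFF and 1.54-fold higher (1.29 to 1.84) at 96 h. Per 1000 cells, Eed went from 469 to 145 and 190 UMIs in HOXA9 OFF, while all genes together went from 8859 to 3782 and 2334 UMIs per cell. The higher value at 96 h is thus one in share of UMIs and not in UMIs per cell. Mitochondrial and ribosomal protein genes took 34.0% of UMIs at 0 h and 11.3% at 96 h of HOXA9 OFF. With a total without them the log2 ratio of Eed, 0.54 (0.31 to 0.76), was 0.17, and with TMM factors it was 1.15.

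The heterochromatin genes Trim28 and Cbx5 had the lowest log2 ratios of the members in CAF-1 OFF. Trim28 stood at 128, 88.0 and 60.2 CPM in CAF-1 OFF, 1.45-fold lower (1.28 to 1.64) at 48 h and 2.12-fold lower (1.84 to 2.44) at 96 h. On the log2 scale of CPM + 10 the latter was -0.97, just short of the 2-fold line. Of the 4789 genes, 0.919% had a lower log2 ratio than Trim28 at 96 h and 3.13% at 48 h. In HOXA9 OFF Trim28 stood at 123, 30.5 and 10.8 CPM, 4.03-fold lower (3.37 to 4.84) and then 11.4-fold lower (8.19 to 16.3).

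Cbx5 stood at 103, 88.0 and 58.0 CPM along CAF-1 OFF and was 1.77-fold lower (1.53 to 2.05) at 96 h. In HOXA9 OFF it stood at 108, 21.5 and 0.567 CPM, the last from 2 UMIs, a ratio to 0 h of 191 with an interval from 52.6 to 1581. The other HP1 genes were lower as well. Cbx1 went from 178 to 97.3 CPM by 96 h of CAF-1 OFF, and over the same time of HOXA9 OFF from 170 to 38.3 CPM. Cbx3 went from 236 to 132 CPM and from 214 to 35.8 CPM.

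Both lysine 9 methyltransferases had few UMIs. Suv39h1 stood at 21.4, 18.2 and 15.4 CPM in CAF-1 OFF, 1.39-fold lower (1.02 to 1.89) at 96 h, against 20.3, 9.42 and 0.851 CPM along HOXA9 OFF. The value at 96 h of HOXA9 OFF rested on 3 UMIs and was 23.8-fold lower (7.88 to 118). Its paralog Suv39h2 went from 15.8 CPM to 0.284 CPM, a single UMI, in the same comparison. Setdb1 stood at 10.4, 8.59 and 8.71 CPM in CAF-1 OFF, with both intervals including 0, and at 11.0, 4.14 and 3.12 CPM in HOXA9 OFF. At 96 h of HOXA9 OFF this was 3.52-fold lower (1.79 to 7.53) as a plain ratio, but its log2 ratio of -0.68 stayed short of the 2-fold line because 10 CPM is as large as the level of the gene.

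Of the members 7 of 10 averaged at least 20 CPM, the limit for the genes behind the shares below, and Dnmt3a, Suv39h1 and Setdb1 did not, but all 10 were counted. In all, 0 of 10 members were at least 2-fold lower or higher in CAF-1 OFF at 48 h, where 0.0418% of 4789 genes were lower and 2.76% higher. At 96 h of CAF-1 OFF the count was again 0 of 10, with 0.856% of genes lower and 5.22% higher. All 10 log2 ratios were below 0 there and 6 of 10 intervals excluded 0. The shares of all genes with a ratio below 0 or with such an interval are not given, and the median of all genes was below 0 too. The median over the members was -0.30 at 96 h and -0.14 at 48 h, against -0.08 and 0 over all genes. At 48 h of HOXA9 OFF 4 of 10 members were at least 2-fold lower, namely Uhrf1, Ezh2, Cbx5 and Trim28, with 19.6% of genes lower and 13.0% higher (13.5% and 16.5% with TMM factors). At 96 h of HOXA9 OFF 7 of 10 were lower, Dnmt1, Suz12 and Suv39h1 in addition, with 39.8% of genes lower and 18.1% higher (27.2% and 27.3% with TMM factors). The median over the members was -0.84 at 48 h and -1.64 at 96 h, against -0.23 and -0.56 over all genes. With so large a background the 7 are not alike: at 96 h 2.46% of genes had a lower log2 ratio than Cbx5, 3.68% than Ezh2, 6.58% than Uhrf1 and 6.95% than Trim28. By contrast, 20.4% of genes lay below Dnmt1, 27.9% below Suv39h1 and 33.8% below Suz12. These ranks depend on the 10 CPM added, which limits how low the ratio of a gene with few UMIs can go. As a plain ratio Suv39h1, from 20.3 CPM at 0 h, was 23.8-fold lower and Trim28 11.4-fold lower. Each count rests on 1 library a group, and TMM factors, which moved the median of all genes at 96 h of HOXA9 OFF by 0.54, left 6 members lower and put Eed 2-fold higher.

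**Figure D3:**
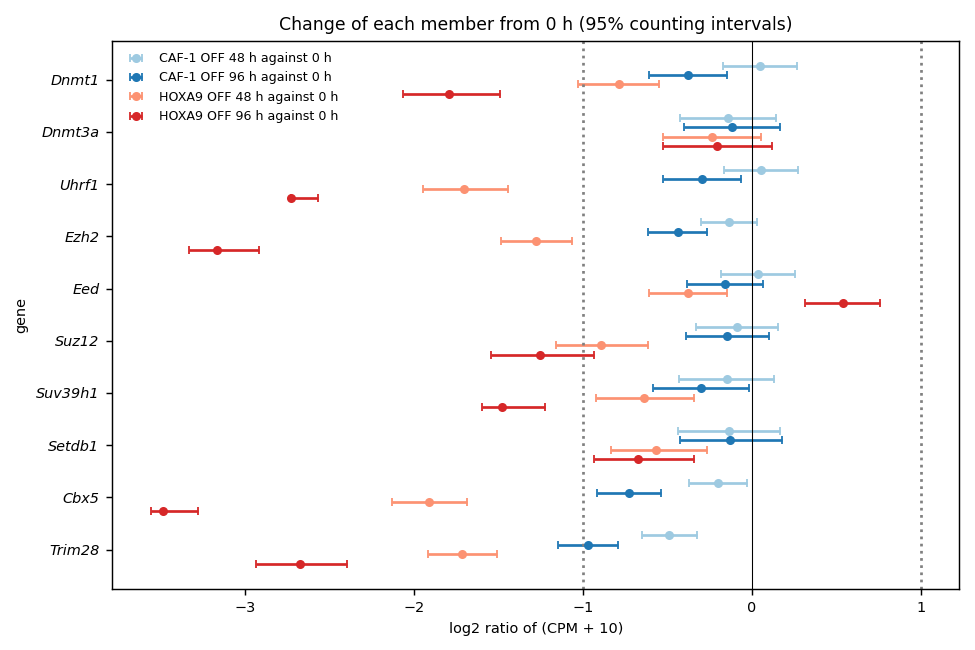
Log2 ratio of CPM + 10 (horizontal axis) of each of the 10 genes for the 4 comparisons with 0 h, with 95% counting intervals and dotted lines at 2-fold. All CAF-1 OFF points (blue) lie between the dotted lines, Trim28 at 96 h closest to the lower one. The HOXA9 OFF points at 96 h (dark red) run from -3.49 for Cbx5 to 0.54 for Eed.

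The order of the members was partly shared by the arms, which have separate 0 h libraries. Over the 10 members the log2 ratios at 96 h of the arms had a Pearson correlation of 0.73, as a description across genes that share libraries and depth. Over 36 wider chromatin genes it was 0.56 and over all 4789 genes 0.48. Cbx5, Trim28 and Ezh2 were among the 4 lowest members in both arms, and Dnmt3a, Setdb1, Suz12 and Eed were the 4 highest in both. The 10 CPM added limits how low the ratio of a gene with few UMIs can go. At 0 h of CAF-1 OFF, Cbx5, Trim28 and Ezh2 stood at 103, 128 and 110 CPM. Dnmt3a, Setdb1, Suz12 and Eed stood at 20.2, 10.4, 38.2 and 50.8 CPM there. Dnmt3a, Suv39h1 and Setdb1 also averaged less than the minimum set for the 36 and 4789 genes. The part of starting level in the shared order and in the correlation of 0.73 was not tested.

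The shares of cells with a UMI were compared after each cell was thinned to 1300 UMIs to level the depth. The share of cells with a Trim28 UMI was 16.7% (13.9 to 19.9) of 633 cells at 0 h of CAF-1 OFF, 9.37% of 907 cells at 48 h and 7.98% (6.30 to 9.95) of 902 cells at 96 h. In HOXA9 OFF it was 12.9% of 472 cells, 3.49% of 1376 cells and 1.24% of 1376 cells. The share with an Eed UMI in HOXA9 OFF was 6.99% (4.86 to 9.68), 6.03% and 9.67% (8.16 to 11.4). Without thinning the last 3 shares were 37.4%, 13.3% and 16.9%, which follow the depth of the cells. For Uhrf1 the thinned share went from 6.99% to 0.872% and then 0 of 1376 cells, which allows a share of up to 0.218% at a floor of 3 cells and of up to 0.268% by the exact 95% interval. Alb, a liver gene that these cells should lack, had no UMI in any kept cell of any library. No cell type known to lack the members was at hand, so the share that free RNA alone would give was not measured.

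Genes of the cell cycle moved with the HOXA9 OFF results. The summed CPM of 40 S phase genes, none of them a member, went from 3438 to 1314 and 311 in HOXA9 OFF, and that of 53 G2/M genes from 6569 to 3557 and 1335. In CAF-1 OFF the S phase sum went from 3837 to 3757 and 3098 and the G2/M sum from 6863 to 7528 and 7057. Cells were therefore split by the UMIs of both lists among their 1300 thinned UMIs. Cells with 3 or more made up 97.7% of cells at 0 h of HOXA9 OFF, 50.2% at 48 h and 33.5% at 96 h, and 94.3% to 98.8% of cells in the CAF-1 OFF libraries. A range of a count is not a cell type: 402 of 1376 cells at 48 h and 595 of 1376 at 96 h of HOXA9 OFF had 2 or 3 such UMIs, on either side of the line.

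In the cells with 3 or more cycle UMIs, 7 of 10 members were at least 2-fold lower at 96 h of HOXA9 OFF, and 3 of 10 at 48 h. The share of all genes past 2-fold within this range is not given, so these counts have no background of their own. Over all cells 39.8% of genes were lower at 96 h and 19.6% at 48 h. Cbx5 in these cells stood at 110 CPM (451 UMIs) at 0 h, 37.5 CPM at 48 h and 0.874 CPM (1 UMI) at 96 h. Ezh2 stood at 98.8, 50.4 and 4.37 CPM, and Uhrf1 at 57.1, 17.9 and 0 CPM. Eed stood at 53.4, 42.6 and 82.1 CPM, close to its values over all cells. The S phase sum within this range also went down, from 3482 to 2093 and 465 CPM, so these cells were not matched in cycle gene level, and the part of the cell cycle in the members' change was not tested. Within 48 h of HOXA9 OFF the ranges differed for Cbx5, with 37.5 CPM in cells with 3 or more cycle UMIs, 1.68 CPM in cells with 1 or 2 and 0 UMIs in cells with none. Uhrf1 had 17.9, 1.12 and 0 CPM in the same order. Dnmt3a was in the other order, at 12.5 CPM (8.81 to 17.3), 16.8 and 22.3 CPM (11.5 to 39.0), with intervals that overlap. In CAF-1 OFF at 96 h the same range held 60.7 CPM of Trim28 and 59.8 CPM of Cbx5, against 128 and 103 CPM at 0 h, with S phase sums of 3195 and 3853 CPM.

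**Figure D4:**
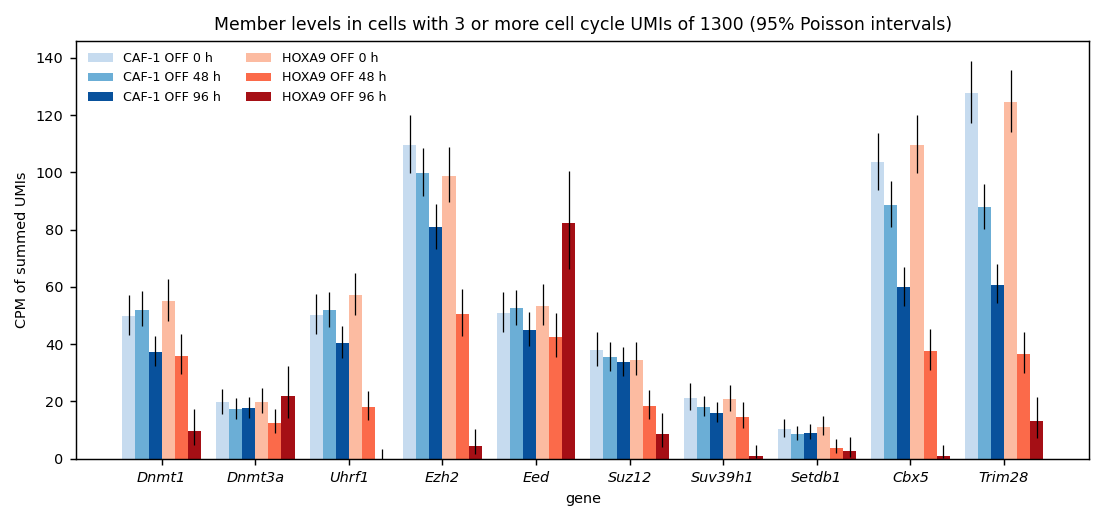
CPM (vertical axis, from 0) of the 10 genes in the cells of each of the 6 libraries that held 3 or more cell cycle UMIs after thinning to 1300, with exact 95% Poisson intervals. In the darkest red bars, HOXA9 OFF at 96 h, Cbx5, Ezh2, Uhrf1, Suv39h1 and Setdb1 are under 5 CPM and Eed is at 82.1 CPM.

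At 48 h of HOXA9 OFF the 1404 cells could also be split by granule genes. In 223 cells Prg2, an eosinophil granule gene, made up at least 1% of UMIs, in 214 cells S100a8 with S100a9, 2 neutrophil genes, did, in 967 neither did and in 0 both. Between 0.5% and 2% lay 52 cells for Prg2 and 146 for S100a8 with S100a9. Ezh2 stood at 38.8 CPM (32.9 to 45.5) in the 967 cells, 37.6 CPM (23.8 to 56.4) in the S100 range and 11.1 CPM (5.08 to 21.1) in the Prg2 range. In the same order Eed stood at 39.1, 60.4 and 18.5 CPM and Dnmt1 at 28.3, 44.1 and 8.65 CPM, both also lowest in the Prg2 range. Trim28 differed by less than its intervals, at 31.4, 27.8 and 28.4 CPM. The S phase sums of the 3 ranges were 1537, 1150 and 366 CPM in that order, so the Prg2 range was also lowest in cell cycle genes, and their part was not tested. Cbx5 stood at 26.7, 11.4 (4.60 to 23.6) and 3.71 CPM, in the order of these sums, whereas Dnmt1 and Eed were highest in the S100 range, with intervals that overlap those of the 967 cells.

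The members were then set among 97 further genes of repressive chromatin, of which 36 averaged at least 20 CPM. In CAF-1 OFF 0 of 97, and so 0 of the 36, were at least 2-fold lower or higher at either time. Of all 4789 genes, 0.0418% were lower and 2.76% higher at 48 h, and 0.856% and 5.22% at 96 h. The genes under 20 CPM reach 2-fold less easily, because of the 10 CPM added. At 96 h of HOXA9 OFF 16 of 97 were lower and 5 higher, or 12 and 2 of the 36, 33.3% and 5.56%. These shares are not above the 39.8% and 18.1% of all genes.

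Among other genes of PRC2, Rbbp7, a histone binding subunit also found in deacetylase complexes, went from 172 to 41.1 and 10.8 CPM in HOXA9 OFF, 15.9-fold lower (11.5 to 22.7) at 96 h. Its paralog Rbbp4, also a subunit of CAF-1, went from 162 to 82.3 and 52.2 CPM. Mtf2, an accessory factor that guides PRC2 to CpG islands, went from 136 to 52.9 and 18.4 CPM. The log2 ratios of these 3 genes at 96 h of CAF-1 OFF were, in the same order, -0.44, -0.40 and -0.35. Ezh1, the other catalytic subunit, was low, at 1.43, 3.58 and 10.2 CPM in HOXA9 OFF. Ezh1 at 96 h was thus 7.13-fold higher (2.98 to 20.7), from 6 to 36 UMIs, while Ezh2 was 49.3-fold lower.

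Among other genes of DNA methylation, Hells, a remodeller needed for methylation of repeats, went from 93.8 to 21.5 and 0.567 CPM along HOXA9 OFF, the last from 2 UMIs. In CAF-1 OFF it went from 99.7 CPM at 0 h to 58.6 CPM at 96 h. Mbd3, a subunit of the NuRD deacetylase complex, went from 113 to 34.5 and 20.1 CPM in HOXA9 OFF, while CAF-1 OFF had 62.2 CPM at 0 h and 61.5 CPM at 96 h. Tdg, a glycosylase that removes oxidised methylcytosine, went from 43.7 to 16.5 CPM by 96 h of HOXA9 OFF, and by 96 h of CAF-1 OFF from 45.8 to 25.4 CPM. Dnmt3l, a cofactor of the de novo enzymes known from germ cells, was higher at the later times of both arms. It stood at 10.2, 16.6 and 23.5 CPM along CAF-1 OFF, whereas HOXA9 OFF had 15.3, 37.1 and 39.2 CPM. At 96 h it was 2.31-fold higher (1.62 to 3.34) and 2.56-fold higher (1.89 to 3.50) as plain ratios. Its log2 ratios of 0.73 and 0.96 stayed short of the 2-fold line.

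The 5 wider genes that were at least 2-fold higher at 96 h of HOXA9 OFF were Kdm7a, Kdm6b, Phf1, Tet2 and Morc3. Kdm6b, Phf1 and Tet2 fall outside the rule for named genes and were chosen after their values were seen. Kdm7a, a demethylase of lysines 9 and 27, went from 2.63 to 25.8 and 95.9 CPM, 36.5-fold higher (20.2 to 73.9) at 96 h. Kdm6b, a demethylase of lysine 27, went from 7.64 to 21.7 and 53.3 CPM, 6.99-fold higher (4.78 to 10.51). Tet2, which oxidises methylcytosine, stood at 6.44, 25.6 and 23.8 CPM. Phf1, an accessory factor of PRC2, stood at 1.67, 4.33 and 17.6 CPM, and Morc3, a nuclear ATPase, at 37.9, 41.8 and 87.7 CPM. Along CAF-1 OFF 0 of these 5 had an interval that excluded 0 at either time. Kdm4a, a demethylase of lysine 9, stood at 23.6, 26.2 and 24.4 CPM in HOXA9 OFF, a log2 ratio at 96 h of 0.03 that was -0.29 with the total without mitochondrial and ribosomal protein genes.

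Among PRC1 genes Kdm2b, which brings PRC1 to CpG islands, went from 51.1 to 13.3 CPM in HOXA9 OFF at 96 h, while the subunit genes Pcgf5 and Yaf2 stood at 77.1 and 72.8 CPM at 0 h and at 40.9 and 108 CPM at 96 h. Ring1, a ubiquitin ligase of PRC1, stood at 22.9 CPM at 0 h and 30.9 CPM at 96 h. Mphosph8, a reader of lysine 9 methylation, went from 68.7 to 11.4 CPM. Of the deacetylases and their partners Hdac2 went from 128 to 20.1 CPM and the remodeller Chd4 from 112 to 33.8 CPM. Hdac3 and Hdac1, at log2 ratios of -0.93 and -0.84, stayed short of the 2-fold line. In CAF-1 OFF Hdac2 stood at 159 CPM at 0 h and 93.4 CPM at 96 h, a log2 ratio of -0.71.

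**Figure D5:**
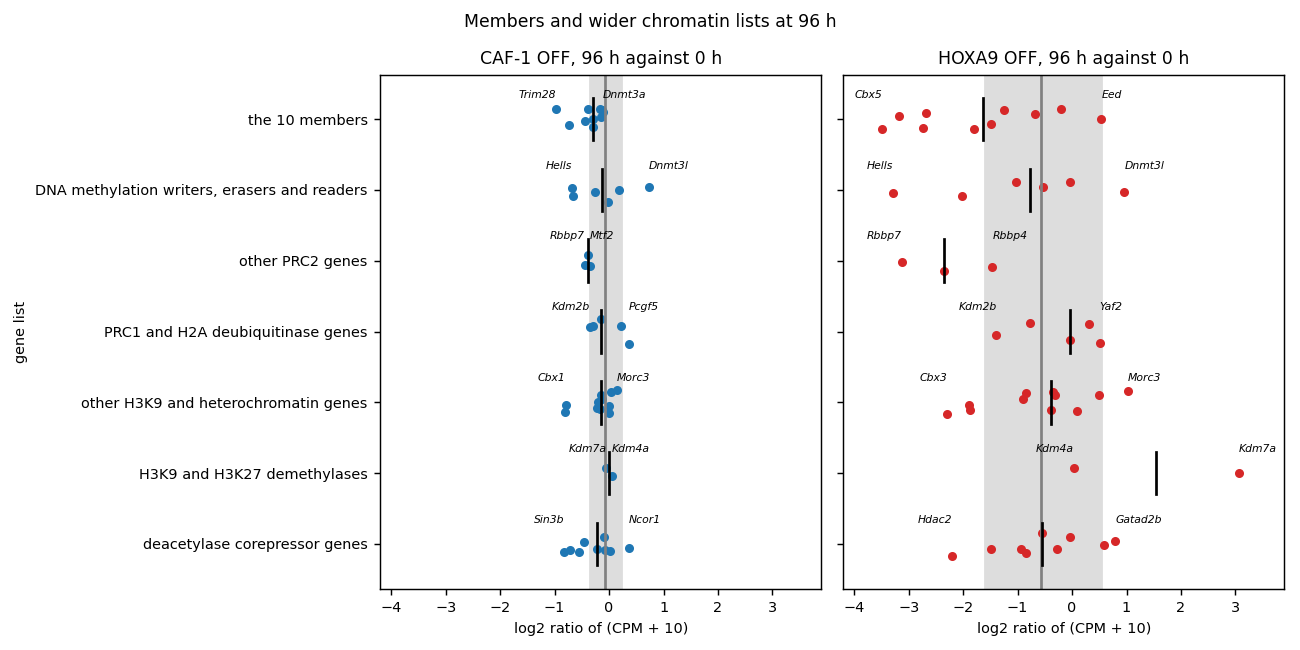
Log2 ratio of CPM + 10 at 96 h against 0 h (horizontal axis) for the 10 members and for the genes of at least 20 CPM in 6 wider lists, 1 gene a point, in CAF-1 OFF (left) and HOXA9 OFF (right). Black bars are list medians, the grey line is the median of all 4789 genes and the grey band their middle 50%. The lowest and highest gene of each list are named; Cbx5 at -3.49 and Kdm7a at 3.07 are the extremes on the right.

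Genes that DNA methylation or Polycomb hold silent in most tissues were at or near 0 in these libraries, apart from Cdkn2a. Of 15 germline genes, 8 had a UMI in some library, with 4, 16 and 18 UMIs in all at the 3 times of CAF-1 OFF, whereas HOXA9 OFF had 3, 3 and 12. In CAF-1 OFF Asz1, a germline gene, had 0, 11 and 8 UMIs at 0, 48 and 96 h and 0 in the 3 HOXA9 OFF libraries. With a floor of 3 UMIs per library this was at least 2.76-fold higher at 48 h and at least 2.08-fold higher at 96 h. In HOXA9 OFF the gain lay in Dpep3, with 0, 3 and 11 UMIs, at least 4.36-fold higher at 96 h. Both were named after their values were seen, and the counts are small. Folds set against the floor leave out counting error. Of 18 developmental genes that Polycomb is known to silence, 4 had a UMI in some library. Only Cdkn2a, a cell cycle inhibitor, exceeded 1 CPM in any library, at 489, 469 and 632 CPM along CAF-1 OFF, whereas HOXA9 OFF had 482, 440 and 278 CPM.

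For each member the 2 genes outside the lists with the most similar log2(CPM + 10) over the 6 libraries were found among 4653 genes, as a description with no p. For Ezh2 they were Ptma (Pearson r = 1.00) and Myg1, and for Suz12 Thoc1 and Naa50. Chaf1a was 1 of the 2 for Suv39h1 (r = 1.00), with Gtf2i the other, and it stood at 32.7, 29.0 and 23.0 CPM along CAF-1 OFF. For Eed the nearest were Ppil4 (r = 0.98) and Sap30 (r = 0.98), the latter at 81.9, 59.1 and 155 CPM in HOXA9 OFF, a like turn between 48 and 96 h. For Dnmt1 they were Smc1a and Rnaseh2a, for Uhrf1 Sf3b5 and Enkd1, for Dnmt3a Hnrnph2 and Smndc1, for Setdb1 Fcf1 and Psmd13, for Cbx5 Mrpl37 and Chchd2, and for Trim28 Fdx1l and Uba3. The 6 points share their libraries and depths, and the lowest r of the 20 pairs was 0.98.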

How the data were processed

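Single-cell 3′ RNA-seq of 6 libraries was analysed. Per the labels and methods, the authors aligned reads to mm10 with Cell Ranger, and the submitters' notes also name Scanpy 1.4.6 and Seurat 3.0.1. They deposited 1 table of raw UMI counts per cell and gene, 7821 barcodes by 27998 genes, with the library in each barcode's suffix. Cells with 200 to 6000 genes and at most 10% UMIs from 13 mitochondrial genes were kept, 5872 in all. Scrublet called 125 of them doublets, which were kept in the main values. UMIs were summed per library and divided by the total to give CPM. Ratios are log2 of (CPM + 10), with 2-fold as the call, and folds are plain CPM ratios. Intervals are exact 95% Poisson (levels) or Clopper-Pearson (ratios and shares of cells) and cover counting error only. With 1 library a group no test was made. All 10 members were named, with up to 4 genes of each wider list (mean of at least 20 CPM, largest change at 96 h), paralogs and the 2 most similar genes. A gene of the wider lists is not reported here. Members and lists were chosen with earlier results of these data known. The ratio functions were tested on simulated data. Python (numpy 2.4.6, scipy 1.17.1, scanpy 1.11.5) and edgeR 4.0.16 (TMM factors only) were used.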

Additional observations from a re-analysis of the deposited data

How the results depend on the processing

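No paired analysis was possible because each group is 1 library and no test was made. Of the 10 members' log2 ratios under 9 alternatives, 90 of 90 in CAF-1 OFF at 48 h, 88 of 90 at 96 h, 65 of 90 in HOXA9 OFF at 48 h and 51 of 90 at 96 h stayed inside their counting interval, and none past 2-fold changed sign. At 96 h of CAF-1 OFF the count of members lower was 1 instead of 0 with a pseudocount of 1 CPM and with mitochondrial and ribosomal protein genes left out of the total, and 2 at 1.5-fold. At 48 h of HOXA9 OFF the 4 members lower became 7 with a pseudocount of 1 CPM, 2 with 50 CPM and 7 at 1.5-fold, and the median of -0.84 became -1.24 with 1 CPM and -0.42 with 50 CPM. At 96 h the 7 members lower became 4 with a pseudocount of 50 CPM. The shares of all genes at these pseudocounts and at 1.5-fold are not given, so these changed counts of members have no background beside them. The median of -1.64 became -2.97 with 1 CPM, -0.68 with 50 CPM, -1.35 with TMM factors, -1.34 with median-of-ratios factors and -2.06 without mitochondrial and ribosomal protein genes, and both sets of factors put 1 member, Eed, 2-fold higher. These factors move the median of all genes there by 0.54 and 0.58, and the total without those genes by -0.38. Ranges from unthinned cells gave 340 instead of 270.0 CPM for the members' sum in the highest cycle range at 48 h of HOXA9 OFF. Using the 0 h library of the other arm, added after seeing the data, gave 0, 0, 5 and 7 members lower in place of 0, 0, 4 and 7. Limits: 1 library a group, few UMIs per gene (3 UMIs are 0.537 to 0.851 CPM), and a cell filter that removed 66.2% of barcodes at 0 h of HOXA9 OFF, although the counts of members lower were the same without its mitochondrial limit.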
